A study of Homo sapiens with 3 samples.

Results

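The regions described here are 3 chromosome arms for which copy loss has been reported in K562 cells: the short arm of chromosome 9 (9p), the long arm of chromosome 13 (13q) and the long arm of chromosome 14 (14q). Their peaks were chosen by position alone, as the rows of 2 deposited peak lists (hg19) on chromosome 9 with an end below 40000000, on chromosome 13, or on chromosome 14 with an end below 102000000. These rows numbered 264 of 19529, of which 205 of 14365 were codanin-1 peaks (1.43% of that list) and 59 of 5164 were GATA1 peaks (1.14%). They were set against the 1994 codanin-1 and 566 GATA1 peaks of chromosomes 2, 8, 11 and 12.

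The study mapped where codanin-1 sits on chromatin by chromatin immunoprecipitation and sequencing (ChIP-seq) in untreated cells of K562, a BCR-ABL1 positive erythroleukaemia line of human origin. Each of 3 antibodies gave 1 library: Cod1, a homemade antibody against residues 123 to 142 of codanin-1, the antibody N6 against GATA1, and rabbit IgG as a non-specific control. Chromatin was fixed for 10 minutes in 1% formaldehyde and sheared in 18 cycles of sonication. Peak lists of the Cod1 and GATA1 libraries were used, and the IgG library was not analysed here. With 1 library per antibody no value has a replicate error, and the intervals and p-values below cover counting error only. The exceptions are the p-values of the permutation tests, which rest on the spread between regions.

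Codanin-1, the product of CDAN1, is a binding partner of the histone chaperone ASF1, and its gene is mutated in congenital dyserythropoietic anaemia type I. GATA1 is a zinc finger factor needed for red cell development, and it binds GATA motifs at erythroid genes. K562 is an aneuploid line in which parts of the genome are gained and other parts are lost, and it is known to lack CDKN2A, a tumour suppressor gene of 9p. As general background, a region present in fewer copies contributes fewer fragments to every immunoprecipitate. The peak lists hold no read counts, so copy number was not measured here and the depth behind the peaks is unknown. No genome or gene annotation of the files' build was used, so sites are given by position without gene names or sequences.

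Both lists were sparse on all 3 arms. Over the span between the first and the last peak of either list, 9p held 47 codanin-1 peaks on 38.7 Mb (1.21 per Mb, 95% exact Poisson interval 0.893 to 1.62). The matching values were 79 peaks on 95.5 Mb of 13q (0.827 per Mb, 0.655 to 1.03) and 79 peaks on 82.6 Mb of 14q (0.957 per Mb, 0.758 to 1.19). The 4 chromosomes held between 2.89 and 3.34 codanin-1 peaks per Mb. No arm's interval reached the interval of any of the 4 chromosomes.

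The GATA1 list was sparse on the same arms. It held 7 peaks on 9p (0.181 per Mb, 0.0728 to 0.373), 24 on 13q (0.251 per Mb, 0.161 to 0.374) and 28 on 14q (0.339 per Mb, 0.225 to 0.490), against 0.637 to 0.967 per Mb on the 4 chromosomes. Here too the intervals of the arms lay below those of the chromosomes. Among the 3 arms the intervals overlapped one another in both lists.

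Pooled over the arms, codanin-1 peaks were 0.31 times as dense as on the 4 chromosomes (0.946 against 3.03 per Mb, 95% exact interval of the ratio 0.269 to 0.360, adjusted p = 1.3e-75, exact conditional binomial test, two-sided). GATA1 peaks were 0.32 times as dense (0.272 against 0.861 per Mb, 0.237 to 0.414, adjusted p = 1.6e-21, same exact test). These p-values are Benjamini-Hochberg adjusted over the 16 tests of this comparison and treat neighbouring peaks as independent, which they are not. With the region as the unit, each of the 3 arms lay below each of the 4 chromosomes in both lists. The mean difference was -2.05 codanin-1 and -0.58 GATA1 peaks per Mb (exact permutation test over 35 arrangements, two-sided p = 0.0286 for each, the smallest possible, adjusted p = 0.0571).

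Taken singly against the pooled chromosomes, the density ratio for codanin-1 was 0.40 on 9p (0.293 to 0.535), 0.27 on 13q (0.215 to 0.341) and 0.32 on 14q (0.249 to 0.395). For GATA1 it was 0.21 on 9p (0.0841 to 0.436), 0.29 on 13q (0.185 to 0.439) and 0.39 on 14q (0.259 to 0.575). All 6 ratios were below 1 at an adjusted p of at most 1.3e-07 (exact conditional binomial test, adjusted over these 6). In a ranking of 23 regions, made of the 3 arms, the other autosomes and chromosome X, the arms took ranks 2 to 4 from the sparsest in both lists. Only chromosome X was sparser, at 0.434 per Mb for codanin-1 and 0.143 per Mb for GATA1.

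**Figure D1:**
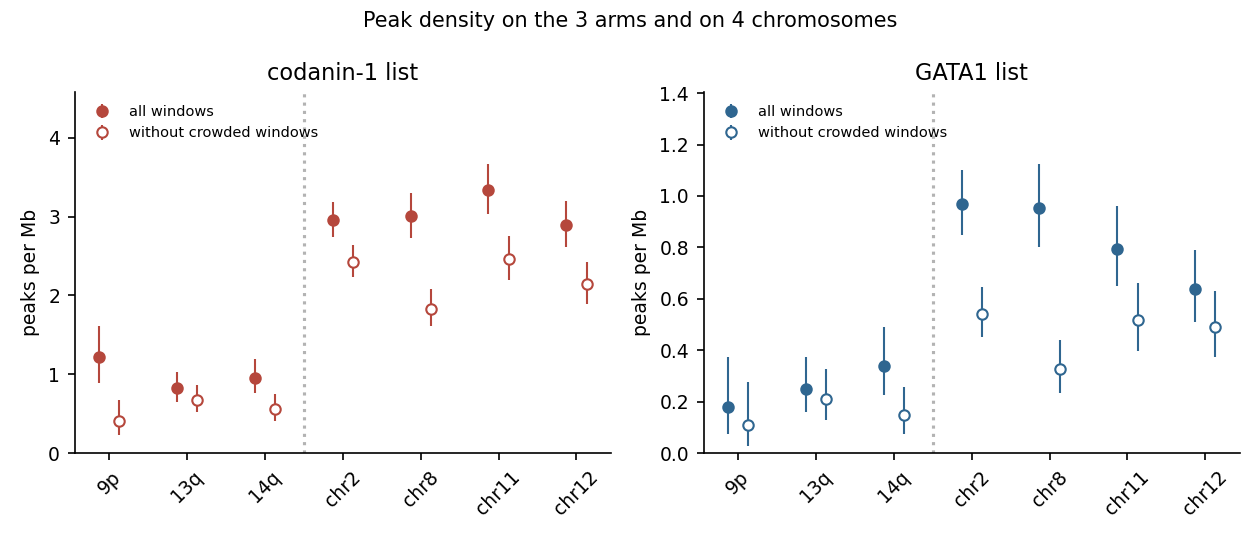
Peaks per Mb (y axis) on the arms 9p, 13q and 14q and on chromosomes 2, 8, 11 and 12 (x axis), for the codanin-1 list (left) and the GATA1 list (right). Filled points use all windows, open points leave out 1 Mb windows with at least 10 codanin-1 peaks, and bars are 95% exact Poisson intervals. The arms lie at 0.827 to 1.21 codanin-1 peaks per Mb, all below the 4 chromosomes at 2.89 to 3.34.

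The sparseness did not differ detectably between the lists. Of the codanin-1 peaks on the arms and the 4 chromosomes together, 9.32% (205 of 2199) lay on the arms, against 9.44% (59 of 625) of the GATA1 peaks (Fisher's exact odds ratio 0.99, adjusted p = 1, two-sided). A stricter threshold separated the point values without a significant difference. Among peaks whose −log10 q reached 2, the density ratio was 0.33 for codanin-1 (0.242 to 0.442) and 0.20 for GATA1 (0.107 to 0.340), with an odds ratio of 1.67 (p = 0.121, Fisher's exact test). That threshold was passed by 24.9% of codanin-1 peaks on the arms (51 of 205) and 23.5% on the 4 chromosomes. It was passed by 23.7% of GATA1 peaks on the arms (14 of 59, 95% exact interval 13.6 to 36.6) and 37.8% on the 4 chromosomes (214 of 566, 33.8 to 41.9). At a fold of at least 5, 11 codanin-1 peaks and 1 GATA1 peak were left on the arms, with density ratios of 0.28 and 0.062.

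Most of the length of the arms held no peak at all. Among windows of 1 Mb wholly inside the spans, 66.0% on the arms (140 of 212) had no codanin-1 peak, against 31.4% on the 4 chromosomes (205 of 652; Fisher's exact odds ratio 4.24, adjusted p = 4.7e-18). For GATA1 the shares were 89.2% on the arms and 71.3% on the chromosomes (Fisher's exact odds ratio 3.30, adjusted p = 1.2e-07). Windows without a peak of either list made up 62.7% of the arms and 27.8% of the chromosomes (Fisher's exact odds ratio 4.38, adjusted p = 1.2e-18). Assembly gaps were not left out of the spans, which include the centromeres of the 4 chromosomes but of none of the arms.

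The empty stretches were long. Stretches of at least 5 Mb without a peak of either list numbered 10 on the arms and filled 44.3% of their span, against 8 on the chromosomes that filled 7.61%. Stretches of at least 10 Mb numbered 3 on the arms and 0 on the 4 chromosomes, where the longest was 7.55 Mb. For the codanin-1 list alone they numbered 3 and 0 as well, the longest being 20.99 Mb on the arms and 8.49 Mb on the chromosomes. The GATA1 list alone had 10 on the arms and 11 on the chromosomes, whose span is longer, the longest being 24.5 Mb and 25.9 Mb. GATA1 stretches of at least 5 Mb filled 90.8% of the arms and 57.1% of the chromosomes.

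On 9p 2 stretches took up 71.1% of the arm. The longer ran for 15.7 Mb from 16877304 to 32573151, between a GATA1 peak of 4.35-fold and a codanin-1 peak of 4.95-fold. The other ran for 11.8 Mb from 1960440 to 13756502, between codanin-1 peaks of 4.73-fold and 4.10-fold. Another, of 2.20 Mb, followed it from 13756971 to 15957344. Fold here and below is the enrichment over background that the authors deposited for each peak.

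On 13q the longest stretch ran for 15.9 Mb from 57717278 to 73600825, between a GATA1 peak of 4.07-fold and a codanin-1 peak of 4.29-fold. The next were 8.26 Mb from 100259282 to 108518151 and 5.89 Mb from 46019919 to 51905226. On 14q no stretch reached 10 Mb. Its longest were 9.64 Mb from 78596196 to 88237541, 8.75 Mb from 23790518 to 32545398 and 8.60 Mb from 36833254 to 45431197. Stretches of at least 2 Mb numbered 3 on 9p, 14 on 13q and 15 on 14q, and filled 76.8%, 70.9% and 76.6% of the span in that order.

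**Figure D2:**
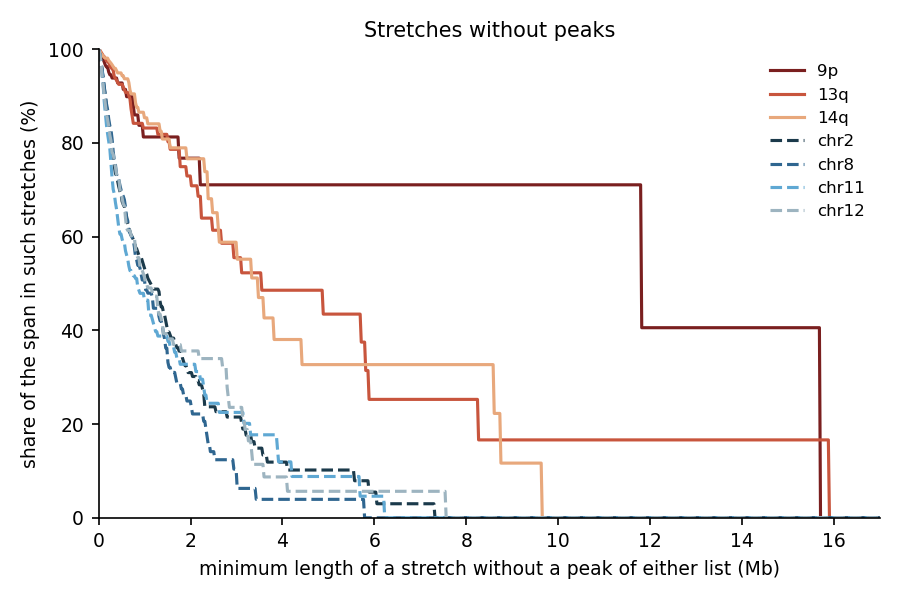
Share of each region's span, in percent (y axis), that lies in stretches without a peak of either list at least as long as the x value, in Mb. Solid lines are the 3 arms and dashed lines chromosomes 2, 8, 11 and 12; at 5 Mb the share is 71.1% on 9p, 43.5% on 13q and 32.7% on 14q, against at most 10.2% on a chromosome.

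About as many of the arms' peaks lay inside 1 block on each arm as outside the blocks. Windows with at least 10 codanin-1 peaks are called crowded, a definition made after seeing the data, and each block is the run of neighbouring windows around them that each hold a codanin-1 peak. The blocks lay at 34 to 39 Mb on 9p, 90 to 96 Mb on 13q and 19 to 22 Mb on 14q. Together they covered 14 Mb and held 103 of the arms' 205 codanin-1 peaks (50.2%) and 31 of their 59 GATA1 peaks (52.5%). Crowded windows were fewer on the arms, 4 on a span of 216.7 Mb against 48 on the 657.1 Mb of the chromosomes.

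The 9p block lay on the centromere side of the part of 9p described here, which ends at 40 Mb, and was mainly a codanin-1 block. It held 36 of the 47 codanin-1 peaks of the arm, of which the windows at 37 Mb and at 38 Mb took 16 apiece, and 3 of the 7 GATA1 peaks. The 3 GATA1 peaks lay near one another, at 37923774 to 37923930 (4.77-fold), 37987111 to 37987240 (4.36-fold) and 38004462 to 38004615 (4.29-fold). The last of them stopped 18 bp short of a codanin-1 peak without overlapping it. The widest codanin-1 peak of the arm, 845 bp at 38026223 to 38027067 (4.47-fold), and the highest in fold, 5.86-fold at 36867283 to 36867392, were both in the block.

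The 14q block lay at the end of its arm next to the centromere, where the first peak of the chromosome was found at 19109054, and it was dense in both lists. The window at 19 Mb held 33 codanin-1 and 16 GATA1 peaks, the most of any window of the arms in either list. The block took 39 of the 79 codanin-1 peaks on the arm, and 19 of the 28 GATA1 peaks. Its codanin-1 peaks followed one another at a median spacing of 13.7 kb, and the median distance from a GATA1 peak of the block to the nearest codanin-1 peak was 0.976 kb. Outside the block, GATA1 peaks of 14q had a codanin-1 peak at a median distance of 118 kb.

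The 13q block lay inside the arm, far from both ends. It held 28 of 79 codanin-1 peaks, 15 of them in the window at 91 Mb, and 9 of 24 GATA1 peaks between 90536104 and 92950436. It included the widest peak of each list on 13q: a codanin-1 peak of 947 bp at 93928144 to 93929090 (4.08-fold) and a GATA1 peak of 494 bp at 92949943 to 92950436 (4.07-fold).

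**Figure D3:**
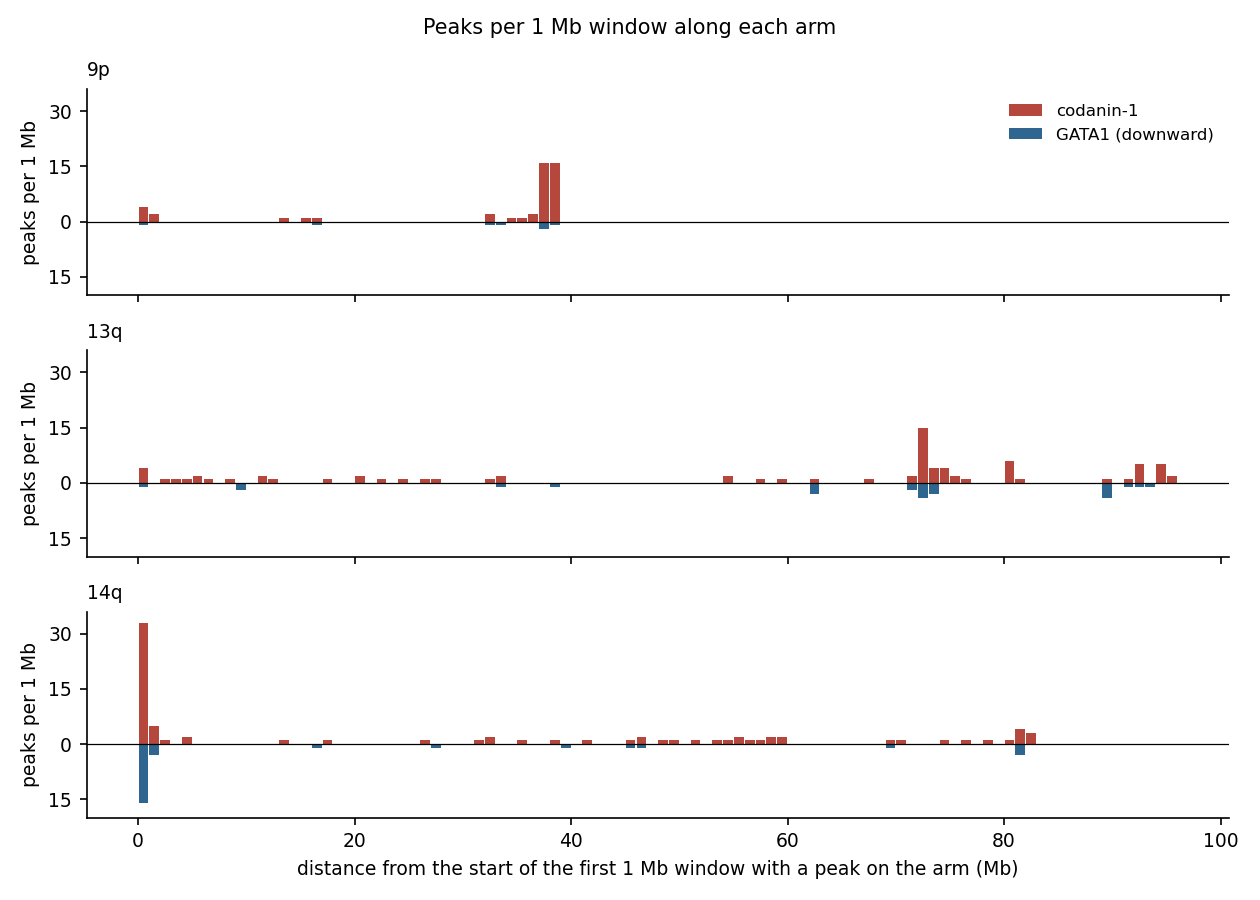
Number of peaks per 1 Mb window (y axis, codanin-1 upward and GATA1 downward) along 9p, 13q and 14q, by distance in Mb from the first window with a peak on the arm (x axis). The tallest bars are 16 codanin-1 peaks in each of 2 windows of 9p, 15 in 1 window of 13q and 33 in the first window of 14q.

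Leaving out crowded windows from the arms and the chromosomes alike kept the arms sparser. Codanin-1 density was then 0.406 per Mb on 9p, 0.677 on 13q and 0.563 on 14q, against 1.83 to 2.46 on the 4 chromosomes (pooled ratio 0.26, 0.216 to 0.314). GATA1 density was 0.108, 0.212 and 0.147 per Mb in the same order, against 0.325 to 0.541 (pooled ratio 0.35, 0.242 to 0.499). The crowded windows held 32 of the 47 codanin-1 peaks of 9p, 15 of 79 on 13q and 33 of 79 on 14q. They held 80 of 205 codanin-1 peaks on the arms together (39.0%), against 625 of 1994 on the 4 chromosomes (31.3%). The GATA1 list went the other way, with 23 of 59 on the arms (39.0%), against 274 of 566 on the chromosomes (48.4%).

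Outside the blocks the sites were scattered. On 9p there were 11 from the codanin-1 list and 4 from the GATA1 list. Of these, 6 codanin-1 peaks lay in the first 2 Mb, 3 lay between 13 and 17 Mb, and 2 in the window at 32 Mb. The highest codanin-1 folds among them were 5.06 at 15957345 to 15957445 and 4.95 at 32573152 to 32573252. The highest GATA1 fold of the arm, 5.80, was at 32919943 to 32920002, a peak of the minimum width of 60 bp and 211891 bp from the nearest codanin-1 peak. The widest GATA1 peak of 9p, 183 bp at 10225 to 10407 (4.28-fold), was also the first peak of the chromosome.

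On 13q the 3 codanin-1 peaks of highest fold were outside the block and narrow: 5.98-fold at 24764178 to 24764286, 5.33-fold at 45479923 to 45480023 and 5.20-fold at 99379240 to 99379341. Each was more than 3 Mb from a GATA1 peak. The GATA1 peaks of highest fold were at 112669247 to 112669444 (4.81-fold), 19646877 to 19646965 (4.64-fold) and, in the block, 91267497 to 91267556 (4.46-fold). The most significant GATA1 peak of 13q had a low fold, 3.33, with a −log10 q of 9.14, at 28033708 to 28034063. A tight group of 4 GATA1 peaks lay between 108518152 and 108521153, and 1 of them overlapped the only codanin-1 peak of that window. A further 3 GATA1 peaks lay between 81280351 and 81281950, with the nearest codanin-1 peak 69124 bp away. The lowest GATA1 fold of the arms, 1.78, was at 110076518 to 110076644, with a −log10 q of 2.61. At the far end of 13q codanin-1 peaks were again closer together, the windows at 111 Mb and at 113 Mb holding 5 apiece.

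On 14q the codanin-1 peaks of highest fold were at 70426731 to 70426844 (5.60-fold), 36833150 to 36833253 (5.43-fold) and 64336878 to 64336978 (5.17-fold), all outside the block. The 3 GATA1 peaks of highest fold were all inside it, at 19747105 to 19747627 (4.88-fold), 19746195 to 19746284 (4.74-fold) and 19502205 to 19502432 (4.73-fold). The first of these was also the widest GATA1 peak of the arm, 523 bp, and it overlapped the widest codanin-1 peak of the arm, 846 bp at 19747576 to 19748421. The 9 GATA1 peaks outside the block were spread from 35853328 to 100763793, and 3 of them lay in the window at 100 Mb, which also held 4 codanin-1 peaks.

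The last codanin-1 peak inside on chromosome 9 was at 38694045 to 38694145 (4.85-fold) and the first beyond it at 40754929 to 40755154 (4.07-fold). The GATA1 peaks on either side were at 38004462 to 38004615 (4.29-fold) and 42799358 to 42799421 (5.24-fold). On chromosome 14 the codanin-1 peaks on either side were at 101665219 to 101665319 (4.78-fold) and 102094899 to 102095109 (4.41-fold). The GATA1 peaks there were at 100763692 to 100763793 (4.34-fold) and 103995225 to 103995391 (4.05-fold). Beyond the ends lay 486 codanin-1 and 319 GATA1 peaks on chromosome 9, and 13 codanin-1 and 8 GATA1 peaks on chromosome 14.

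Few peaks of the 2 lists coincided on the arms. An overlap of at least 1 bp with a GATA1 peak was found for 7 of 205 codanin-1 peaks (3.41%, 95% exact interval 1.38 to 6.91), against 71 of 1994 on the 4 chromosomes (3.56%, 2.79 to 4.47; Fisher's exact odds ratio 0.96, adjusted p = 1). Over the whole codanin-1 list the share was 6.60%. Of the GATA1 peaks, 7 of 59 on the arms overlapped a codanin-1 peak (11.9%, 4.91 to 22.9), against 73 of 566 on the chromosomes (12.9%, 10.2 to 15.9; Fisher's exact odds ratio 0.91, adjusted p = 1) and 20.2% of the whole list. With so few overlapping peaks the intervals are wide, and a difference within them was not detectable. The share also depends on how dense the other list is. Both lists were sparser on the arms, at 0.31 (codanin-1) and 0.32 (GATA1) times the density of the chromosomes, which was not adjusted for.

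The comparison of overlap depended on the chromosomes chosen. Against the gene-poor chromosomes 4, 5 and 18 the shares on the arms were lower, 3.41% against 8.52% for codanin-1 (odds ratio 0.38, p = 0.0080) and 11.9% against 28.2% for GATA1 (odds ratio 0.34, p = 0.0067, Fisher's exact test for both, not adjusted). Both calls rested on chromosome 4, where 16.8% of codanin-1 and 37.1% of GATA1 peaks overlapped. Chromosome 5 had 5.98% and 23.2%, and chromosome 18 had 2.89% and 17.9%. Against chromosomes 5 and 18 alone, a comparison added after seeing the data, the shares were 3.41% against 5.09% for codanin-1 (odds ratio 0.66, p = 0.371) and 11.9% against 21.99% for GATA1 (odds ratio 0.48, p = 0.102, Fisher's exact test). The density ratio moved little against chromosomes 4, 5 and 18, to 0.31 for codanin-1 and 0.30 for GATA1.

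The overlapping pairs were unevenly spread over the arms. None lay on 9p. Taking 3 counts as the limit of a count of 0, 0 of 47 codanin-1 peaks allows a share of up to 6.38% and 0 of 7 GATA1 peaks one of up to 42.9%, where the 95% exact intervals end at 7.55% and 41.0%. On 13q 2 codanin-1 peaks overlapped: 92050793 to 92051226 in the block (codanin-1 3.62-fold, GATA1 3.83-fold, 55 bp shared) and 108520166 to 108520904 (codanin-1 3.47-fold, GATA1 3.82-fold, 69 bp shared). Both were pairs of low fold that met at their edges.

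On 14q 5 codanin-1 peaks overlapped, 4 of them in the window at 19 Mb. These 4 were at 19501024 to 19501319 (codanin-1 4.11-fold, GATA1 4.15-fold), 19641453 to 19641626 (3.95-fold and 3.98-fold), 19746690 to 19746809 (4.38-fold and 4.18-fold) and 19747576 to 19748421 (3.66-fold and 4.88-fold). The fifth, at 88237542 to 88237811, stood alone between empty stretches and shared 250 bp with a GATA1 peak of 262 bp. It had the lowest codanin-1 fold of the arms, 1.93, beside a GATA1 fold of 2.96, and its GATA1 −log10 q of 10.5 was the highest of any peak on the arms.

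**Figure D4:**
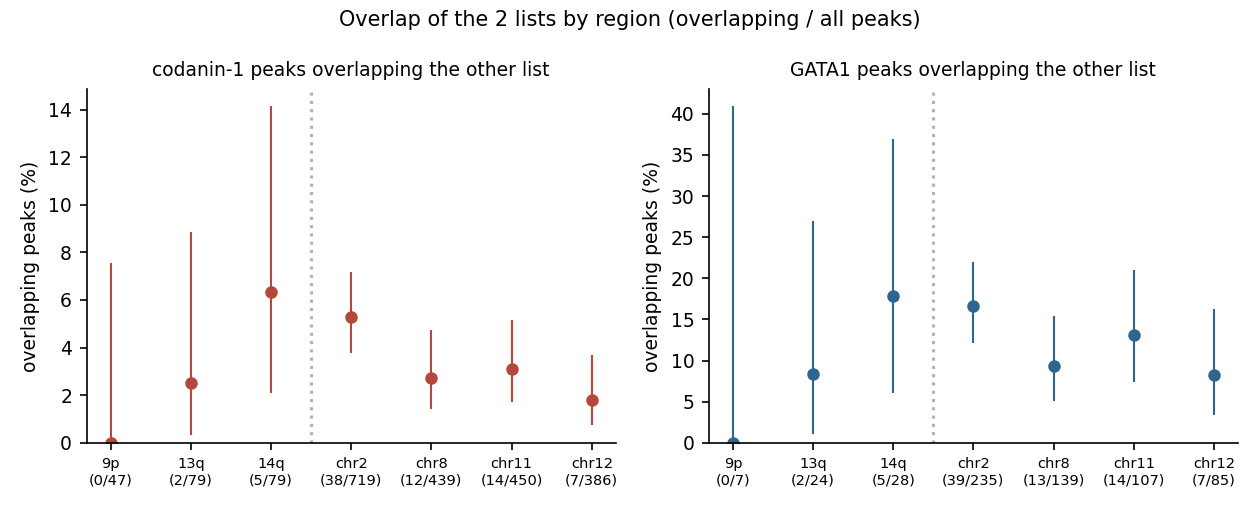
Share of codanin-1 peaks (left) and GATA1 peaks (right) that overlap a peak of the other list by at least 1 bp, in percent (y axis), by region (x axis, with overlapping and all peaks); bars are 95% exact binomial intervals. The arms run from 0% on 9p to 6.33% on 14q for codanin-1, and their intervals overlap those of the 4 chromosomes.

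Peak widths on the arms were close to those of the chromosomes. The median codanin-1 width was 192 bp on the arms (quartiles 116 and 315) and 189.5 bp on the 4 chromosomes (109 and 325). By arm it was 184 bp on 9p, 171 bp on 13q and 221 bp on 14q. A width above the median of the whole list, 220 bp, was found for 43.4% of codanin-1 peaks on the arms and 43.9% on the chromosomes, against 49.9% of the list (Fisher's exact odds ratio 0.98, adjusted p = 1). The median GATA1 width was 154 bp on the arms (94.5 and 238.5) and 165.5 bp on the chromosomes (94 and 245), and 44.1% and 48.9% exceeded the list's median of 168 bp, against 49.6% of the list (Fisher's exact odds ratio 0.82, adjusted p = 0.795). The widest peaks were shorter on the arms, with maxima of 947 bp (codanin-1) and 523 bp (GATA1), against 1444 bp and 2100 bp on the chromosomes, which hold many more peaks.

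Peaks inside the blocks had the larger median width in both lists, 218 bp against 180 bp in the rest of the arms for codanin-1 and 199 bp against 125 bp for GATA1. Crowded windows of the 4 chromosomes went the same way. Their median width was 214 bp against 180 bp in the other windows for codanin-1, and 184 bp against 144 bp for GATA1. The blocks were defined after seeing the data, from the crowding of codanin-1 peaks, so these values are given without a test.

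The median fold enrichment of the arms' peaks was close to that of the chromosomes. The median codanin-1 fold was 4.01 on the arms (quartiles 3.84 and 4.35, maximum 5.98) and 4.03 on the chromosomes (3.87 and 4.36, maximum 8.01). A fold above the list's median of 3.97 was found for 53.7% on the arms and 55.3% on the chromosomes, against 50.0% over the list (Fisher's exact odds ratio 0.94, adjusted p = 0.958). For GATA1 the median fold was 4.22 on the arms and 4.24 on the chromosomes, and 54.2% and 55.1% exceeded the list's median of 4.18, against 50.0% over the list (Fisher's exact odds ratio 0.96, adjusted p = 1). The upper end of the GATA1 folds was lower on the arms, with a maximum of 5.80 against 7.61 on the chromosomes. A fold of at least 5 was found for 1 of 59 GATA1 peaks on the arms (1.69%), against 49 of 566 (8.66%), and for 5.37% of codanin-1 peaks on the arms, against 6.02%. These shares were not tested.

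A difference appeared when peaks of similar −log10 p were compared. Each list was divided into 10 classes of −log10 p, and a peak was counted as high where its fold exceeded the median of its class. Peaks of equal −log10 p were put in order by chromosome name before the division. The 774 codanin-1 peaks that share a fold of 3.88 and a −log10 p of 4.63 thus fell into more than 1 class. Of these, the 6 on 13q and the 6 on 14q were counted as high, and the 1 on 9p was not. Another 160 of the tied peaks lay on chromosomes 2, 8, 11 and 12, and their classes were set by the same order. On the arms 85 of 205 codanin-1 peaks were high (41.5%, 95% exact interval 34.6 to 48.5), against 1133 of 1994 on the chromosomes (56.8%, 54.6 to 59.0; Fisher's exact odds ratio 0.54, adjusted p = 8.7e-05) and 49.6% of the list. By region the codanin-1 share was 51.1% on 9p, 41.8% on 13q and 35.4% on 14q, against 59.4%, 47.4%, 59.8% and 59.3% on chromosomes 2, 8, 11 and 12. Chromosome 8 (95% exact interval 42.6 to 52.2) thus lay below 9p and within the interval of the pooled arms. By region, the arms and the chromosomes were therefore not separate in this share. The Fisher's exact test of the pooled shares treats neighbouring peaks as independent, which they are not. How far the order of the tied peaks moved the regional and pooled shares was not tested. For GATA1 the shares were 45.8% on the arms (27 of 59) and 52.7% on the chromosomes, against 48.6% of the list (Fisher's exact odds ratio 0.76, adjusted p = 0.604). Without crowded windows the codanin-1 shares were 51.2% and 58.9% (odds ratio 0.73, p = 0.107, Fisher's exact test). The call was then lost, with 125 codanin-1 peaks left on the arms, while the odds ratio stayed below 1.

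On the arms, the low values came from the blocks of 13q and 14q. In the 13q block 1 of 28 codanin-1 peaks was high (3.57%), against 32 of 51 in the rest of the arm (62.7%), and the median fold was 3.70 in the block and 4.23 in the rest. In the 14q block 6 of 39 were high (15.4%), against 22 of 40 in the rest of the arm (55.0%). The 32 high peaks in the rest of 13q include the 6 tied peaks of that arm. Likewise, the 22 in the rest of 14q include the 6 tied peaks of 14q. These tied peaks were counted as high through the class in which their order placed them. The 9p block stood apart from those of 13q and 14q, with 19 of 36 high (52.8%), against 5 of 11 in the rest of the arm (45.5%). A low median fold was not particular to the arms. Some crowded windows of the 4 chromosomes had lower codanin-1 medians than the 13q block. These were 2.07 at 133 Mb, 3.37 at 90 Mb and 3.66 at 91 Mb on chromosome 2, and 3.16 at 86 Mb on chromosome 8. The median over the peaks of all 48 crowded windows there was 4.00.

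The GATA1 list gave another picture by arm. On 13q 4 of 24 GATA1 peaks were high (16.7%, 4.74 to 37.4), with 1 of 9 in the block and 3 of 15 in the rest. On 14q 19 of 28 were high (67.9%, 47.6 to 84.1), with 13 of 19 in the block and 6 of 9 in the rest. On 9p 4 of 7 were high, with 2 of 3 in the block and 2 of 4 in the rest. The 13q block was thus low in fold at its −log10 p in both lists, as was the rest of 13q in the GATA1 list. The 14q block was low in the codanin-1 list and not in the GATA1 list. The 9p block was low in neither, with only 3 GATA1 peaks to go by. The blocks were chosen after their values were seen, so these differences were not tested, nor was any part that copy number may have in them.

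**Figure D5:**
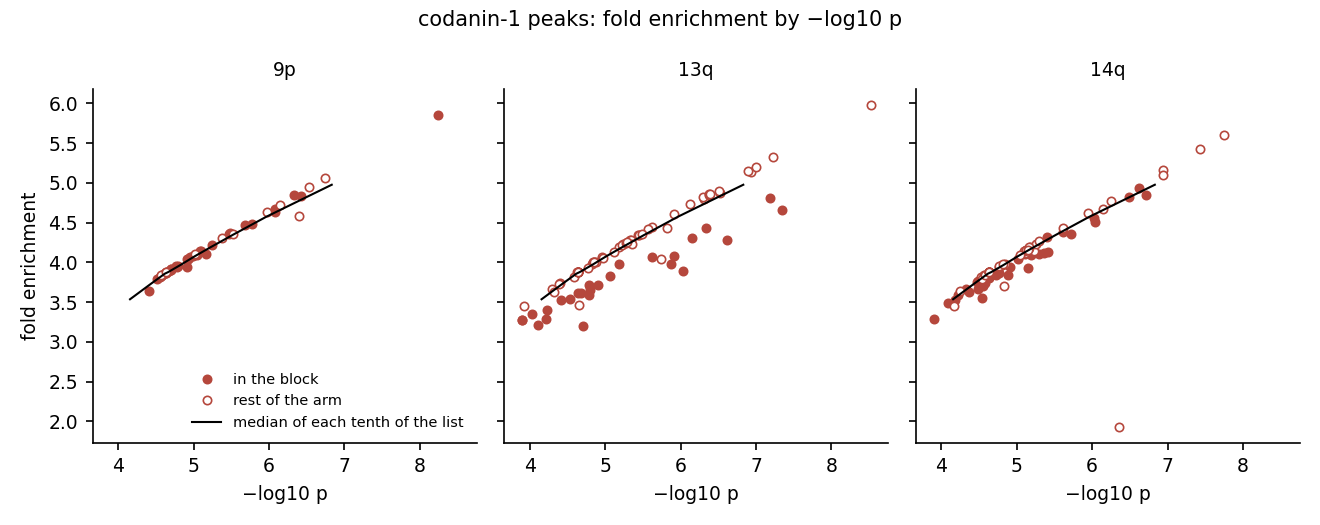
Fold enrichment (y axis) by −log10 p (x axis) of the codanin-1 peaks of 9p, 13q and 14q, filled in the block of each arm and open in the rest. The line joins the medians of 10 classes of −log10 p of the whole list; 27 of 28 filled points of 13q do not exceed the median of their class, whereas those of 9p lie along the line.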

How the data were processed

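Chromatin of K562 cells was immunoprecipitated and sequenced by the authors, 1 library per antibody. Per the submitters' processing notes, hg19, BWA and MACS2 were used; which library served as background, the threshold, filters and any pooling were not given in the sources used here. Per the file layout, the deposited lists give each peak's position, score, fold enrichment (a linear ratio over background), −log10 p and −log10 q (the p-value and q-value on a −log10 scale). The deposited score equals 10 times the −log10 q without its decimals for every peak, and adds nothing to it. No −log10 q lay under 1.01 (codanin-1) or 1.00 (GATA1). Folds were compared only within a list. Depth is unknown.

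Starts were raised by 1 to count from 1. Lengths ran from the first to the last peak of either list in each region, and windows took peaks by midpoint. Tests were Fisher's exact test, an exact conditional binomial test of densities and an exact permutation test over regions, all two-sided, with Benjamini-Hochberg adjustment; intervals are 95% exact. The density and overlap functions were tested on simulated data, and the others were not. Members, lists and tests were chosen with earlier results of these data known. Peaks were named by rule: on each arm the 3 of highest fold and the widest of each list, all overlapping pairs, those bounding the 3 longest empty stretches, the fullest windows, and those on either side of each end; others named were chosen after their values were seen. Alternatives covered thresholds, merging, lengths, window sizes, overlap rules and references. Software was scipy 1.17.1, statsmodels 0.14.6, pandas 2.3.3, numpy 2.4.6 and matplotlib 3.10.9 under Python 3.11.15. The gene, promoter and miRNA tables at hand are of another build and were not used.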

Additional observations from a re-analysis of the deposited data

How the results depend on the processing

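The lower density of the arms held under all 17 alternatives for each list, with ratios from 0.19 to 0.58 for codanin-1 and from 0.062 to 0.59 for GATA1. The excess of empty windows held under all 6 (odds ratios 3.43 to 5.28 for codanin-1, 2.44 to 3.70 for GATA1, 3.45 to 5.52 for both lists). The ratio was highest when only windows with a peak of either list were counted as length. It was lowest against all other autosomes but 22 for codanin-1 and at a fold of at least 5 for GATA1. Calls in this paragraph use p-values that are not adjusted. With the region as the unit, added after seeing the data, the GATA1 difference was -0.23 peaks per Mb at a −log10 q of at least 2 and -0.31 without crowded windows (exact permutation p = 0.0571 for both). Against chromosomes 4, 5 and 18 the differences were -2.15 for codanin-1 and -0.62 for GATA1, with an exact permutation p of 0.10, the smallest that 3 against 3 allows.

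The odds ratio between the lists, 0.99, passed 1 without a call at a −log10 q of at least 2 (1.67), at a fold of at least 5 (4.49), without 13q (1.02), 14q (1.15), chromosome 11 (1.03) or chromosome 12 (1.04), against chromosomes 4, 5 and 18 (1.05) or all other autosomes but 22 (1.04), and by covered bases (1.20). The overlap odds ratio fell to 0.38 for codanin-1 and 0.34 for GATA1 against chromosomes 4, 5 and 18, with a call that was lost without chromosome 4 (0.66 and 0.48), and passed 1 without a call: for codanin-1 without 9p (1.26) or 13q (1.12), with 9p up to 36 Mb (1.16), within 1 kb (1.24) and without crowded windows (1.75), and for GATA1 without 9p (1.05) or 13q (1.13), within 1 kb (1.29) and without crowded windows (1.17). The width odds ratio passed 1 for codanin-1 without 9p (1.04) or 13q (1.09) and at the upper quartile (1.19), and for GATA1 without crowded windows (1.02). The fold odds ratio did so for codanin-1 without 14q (1.11), against chromosomes 4, 5 and 18 (1.02) or all other autosomes but 22 (1.05) and without crowded windows (1.16). For GATA1 the fold odds ratio did so without 13q (1.56) and against chromosomes 4, 5 and 18 (1.26). At matched −log10 p the codanin-1 odds ratio lost its call without crowded windows (0.73) and kept it under the other 8 alternatives (0.48 to 0.71). That of GATA1 gained a call without 14q (0.31, p = 0.0049) and without crowded windows (0.45, p = 0.0328, Fisher's exact test), and passed 1 without 13q (1.72), against chromosomes 4, 5 and 18 (1.06) and at the upper quartile (1.10). For none of these was the cause tested. No paired analysis was possible because there is only 1 library per antibody, which also means that none could be omitted. Depth is unknown, so the number of sites on the arms that missed the peak threshold is unknown.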

Other observations

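Many peaks of each list share 1 exact value. Among codanin-1 peaks, 774 had the same fold of 3.88 and the same −log10 p of 4.63, over widths from 101 to 834 bp, and 13 of them lay on the arms (6.34% of 205) and 160 on chromosomes 2, 8, 11 and 12 (8.02% of 1994). On 9p there was 1 such peak of 47. In the GATA1 list 114 peaks shared a fold of 4.36 and a −log10 p of 5.54, 2 of them on the arms (3.39% of 59) and 22 on the 4 chromosomes (3.89% of 566).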
